A study of Mus musculus with 36 samples.

Results

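The CC chemokine genes followed here are Ccl2, Ccl3, Ccl4, Ccl5, Ccl6, Ccl7, Ccl9, Ccl12, Ccl17 and Ccl22. All 10 were measured, each by 1 probe set that carries its symbol alone, among 19938 genes on the array. RNA levels were taken in mouse multipotent progenitors (MPP), which can give rise to every blood lineage, and in CDP, the common progenitors of dendritic cells. Both cell types came from bone marrow that was expanded in culture with cytokines and then sorted by FACS. They received recombinant human TGF-β1 at 10 ng/ml and were harvested at 2, 4, 8, 12 and 24 h, and untreated cells served as 0 h. Each of the 12 groups had 3 arrays, 36 arrays in all, which the study describes as biological replicates. The labels give no strain, genotype, sex or age for these cells, and the treated times had no untreated partner arrays here. Every change against 0 h thus holds both TGF-β1 and the hours spent in culture.

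CC chemokines are small secreted proteins that draw leukocytes along a gradient by binding G protein-coupled receptors. Ccl6, Ccl9, Ccl3 and Ccl5 are ligands of Ccr1, and Ccl4 is a close relative of Ccl3. Ccl2, Ccl7 and Ccl12 recruit monocytes through Ccr2, while Ccl17 and Ccl22, made by mature dendritic cells, act on Ccr4. Myeloid cells release many of them under inflammatory signals that reach the nucleus through NF-κB or interferon pathways. By the GRCm38.p6 annotation of RefSeq, 8 of the 10 genes lie on chromosome 11, where Ccl5, Ccl9, Ccl6, Ccl3 and Ccl4 follow each other without another coding gene between them. Ccl17 and Ccl22 lie on chromosome 8 on either side of Cx3cl1.

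Levels are log2 intensities as deposited, changes are differences of log2 levels, and errors are the standard error (SE) of limma. A gene was taken as differentially expressed (DE) at a Benjamini-Hochberg adjusted p under 0.01 over all genes together with a log2 fold change of at least 1 in size. A group mean was described as near background where it did not exceed 7.01, the 95th percentile of the mean levels of 1027 olfactory receptor genes. In such bulk samples fewer cells of a type and less RNA per cell cannot be told apart.

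Several arrays stood apart before any chemokine was compared. The mean of 16 interferon-stimulated genes was 12.27 on CDP 2 h array 3, against 8.42 on both other arrays of that group. It was 10.37 on CDP 0 h array 3, against 8.69 and 8.52, and 10.38 and 9.89 on CDP 4 h arrays 1 and 3, against 8.41. Array 3 was also the high array of CDP at 8 h (9.53) and 12 h (9.22). On MPP 0 h array 3 this mean was 9.04, against 8.25 and 8.24. The mean of 17 NF-κB target genes was 9.76 on CDP 24 h array 2, against 11.04 and 11.18 on its partners, and 10.09 on MPP 12 h array 2, against 9.46 and 9.41. The lowest correlation between arrays of a group was 0.9886, in CDP at 2 h. The typical (median) within-group SD was 0.0637 to 0.0817 over all genes, and over the 10 chemokines it was 0.673 in CDP at 2 h and 0.381 in CDP at 24 h. Markers set the cell types apart. The mean of 9 progenitor markers lay at 11.77 to 11.91 in untreated MPP and at 10.77 to 10.81 in untreated CDP. Its members differed: 5 were lower and 1 was higher in CDP by the DE rule stated above. Mpo was 14.00 in untreated MPP and 8.43 in untreated CDP, while Flt3 was 10.23 and 12.37. Of 10 CDP markers, 3 were DE and higher in CDP, among them Siglech by 1.62 ± 0.23 (adjusted p = 2.27e-06). The mean of 10 neutrophil markers was 10.60 to 11.63 in untreated MPP and 8.07 to 8.41 in untreated CDP. The mean of 9 T and NK cell markers, a source of Ccl3, Ccl4 and Ccl5 elsewhere, was 6.43 to 6.44 in untreated MPP and 6.61 to 6.65 in untreated CDP, with 2 and 3 of the 9 above the background limit.

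Over the 5 times there were 7 DE calls among the 10 chemokines in MPP and 6 in CDP, and every one was a fall. In MPP the DE member was Ccl3 at 2 h and Ccl6 at 4, 8 and 12 h, and at 24 h they were Ccl3, Ccl6 and Ccl9. That is 1 of 10 at each of the first 4 times and 3 of 10 at 24 h, where the shares of all genes called in either direction were 0.271%, 0.416%, 0.657%, 0.737% and 1.2%. In CDP no member was DE at 2 h, Ccl6 was DE at 4 and 8 h, and Ccl6 and Ccl9 were DE at 12 and 24 h. The shares of all genes at these times were 0.326%, 0.702%, 1.27%, 1.86% and 3.14%. The median log2 change of the 10 members at 24 h was -0.25 in MPP and -0.21 in CDP, beside -0.01 and 0.00 over all genes. The rest of the family, 9 measured genes such as Ccl8, Ccl20 and Ccl28, held no DE gene in either cell type at 24 h. Of these 9, 3 in MPP and 4 in CDP were above the background limit at that time.

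**Figure D1:**
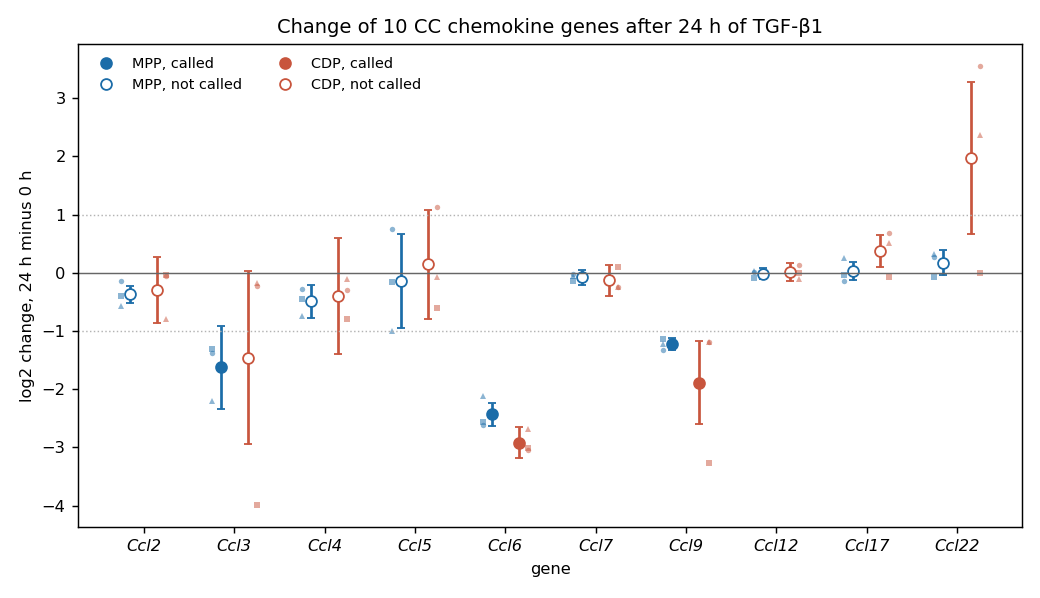
The log2 change from 0 h to 24 h (vertical axis) is shown for each of the 10 chemokine genes in MPP (blue) and CDP (red), with 95% confidence intervals from limma, filled circles for DE genes and small symbols for the 3 same-numbered pairs of arrays. Ccl6 and Ccl9 lie below zero in every pair of both cell types, while the CDP pairs of Ccl3 and Ccl22 are spread over more than 3 log2 units.

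Ccl6, a myeloid chemokine, fell steadily in both cell types. In MPP the 3 arrays read 10.56, 10.75 and 10.26 at 0 h, 9.91, 10.60 and 10.07 at 2 h, and 9.26, 9.70 and 9.40 at 4 h. They read 8.67, 9.10 and 8.63 at 8 h, 8.39, 8.64 and 8.36 at 12 h, and 7.94, 8.19 and 8.15 at 24 h. All 24 h arrays lay below all 0 h arrays by more than 2 log2 units. The change was -0.33 ± 0.09 at 2 h (adjusted p = 0.0499, limma), -1.07 at 4 h, -1.72 at 8 h, -2.06 at 12 h and -2.43 ± 0.09 at 24 h (5.38-fold, adjusted p = 5.17e-11). By 4 h it had covered 44.2% of the 24 h change and by 12 h 84.7%.

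In CDP the Ccl6 arrays read 11.39, 10.83 and 11.20 at 0 h, 10.87, 10.51 and 10.60 at 2 h, and 10.00, 10.00 and 10.21 at 4 h. They read 9.53, 9.52 and 9.46 at 8 h, 8.91, 8.90 and 9.06 at 12 h, and 8.34, 7.82 and 8.51 at 24 h. Again no array at 24 h reached the lowest one at 0 h. The change was -0.48 at 2 h (adjusted p = 0.0480), -1.07 at 4 h, -1.63 at 8 h, -2.18 at 12 h and -2.92 ± 0.13 at 24 h (7.56-fold, adjusted p = 6.20e-10). Here 36.6% of the 24 h change was reached by 4 h and 74.8% by 12 h. The mean dropped at each of the 5 steps in both cell types, and the arrays of neighbouring times did not overlap at 4 of 5 steps in CDP and 3 of 5 in MPP.

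The Ccl6 calls at 8, 12 and 24 h were kept in all 32 alternative settings of each cell type. At 4 h the change sat near the minimum of 1: it was -0.97 in MPP without 0 h array 1 and -0.96 without replicate 1, and in CDP it was -0.97 without 0 h array 1, -0.98 without 4 h array 1 and -0.91 without replicate 1, which ended the call each time. Untreated CDP held more Ccl6 than untreated MPP, by 0.62 ± 0.18 with no overlap of the arrays (adjusted p = 0.0109), under the minimum change. At 24 h the group means, 8.22 in CDP and 8.09 in MPP, were the lowest of the 12 and their arrays overlapped. The CDP change exceeded the MPP change in size by 0.49 ± 0.17 at 24 h (adjusted p = 0.0456), short of a call, and by 0.34 (adjusted p = 0.181) without CDP 24 h array 2.

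Ccl9, a close relative of Ccl6 that draws myeloid dendritic cells, was also lower in both cell types at 24 h. In MPP it read 12.06, 12.02 and 12.06 at 0 h, 11.76, 11.92 and 11.78 at 2 h, and 11.56, 11.70 and 11.66 at 4 h. It read 11.64, 11.55 and 11.58 at 8 h, 11.49, 11.56 and 11.49 at 12 h, and 10.73, 10.90 and 10.83 at 24 h. The 0 h arrays lay above those of every later time, without overlap. The change was -0.23 at 2 h, -0.41 at 4 h, -0.46 at 8 h, -0.53 at 12 h and -1.23 ± 0.05 at 24 h (2.34-fold, adjusted p = 1.02e-10). Ccl9 in MPP had covered 18.4% of its 24 h change at 2 h and 43.5% at 12 h, where Ccl6 had covered 13.5% and 84.7%. The 24 h call was kept in all 32 alternative settings.

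In CDP the Ccl9 arrays read 11.81, 11.68 and 11.99 at 0 h, 11.61, 11.47 and 12.26 at 2 h, and 11.68, 11.28 and 11.77 at 4 h. They read 10.97, 10.93 and 11.36 at 8 h, 10.30, 10.20 and 10.83 at 12 h, and 10.61, 8.41 and 10.79 at 24 h. The 24 h arrays lay below those at 0 h, with array 2 over 2 log2 units under its partners. The change was -0.74 at 8 h (adjusted p = 0.165), -1.38 ± 0.33 at 12 h (adjusted p = 0.00831) and -1.89 ± 0.33 at 24 h (3.70-fold, adjusted p = 0.000496). By 12 h the mean of Ccl9 had covered 73.4% of its 24 h change, where Ccl6 in CDP had covered 74.8%. The later step of Ccl9 rested on array 2 alone. From 12 to 24 h array 1 went from 10.30 to 10.61 and array 3 from 10.83 to 10.79. Without CDP 24 h array 2 the change at 24 h was -1.24 (adjusted p = 1.62e-06), and that at 12 h kept its size with an adjusted p of 2.88e-07. The 12 h call of Ccl9 was otherwise fragile: 16 of 32 settings ended it, all at the same sign (range -1.52 to -1.20), among them the removal of any array at 0, 4 or 12 h, of CDP 2 h array 2, of CDP 8 h array 1 or 3, and the fit without the replicate block (adjusted p = 0.0515).

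**Figure D2:**
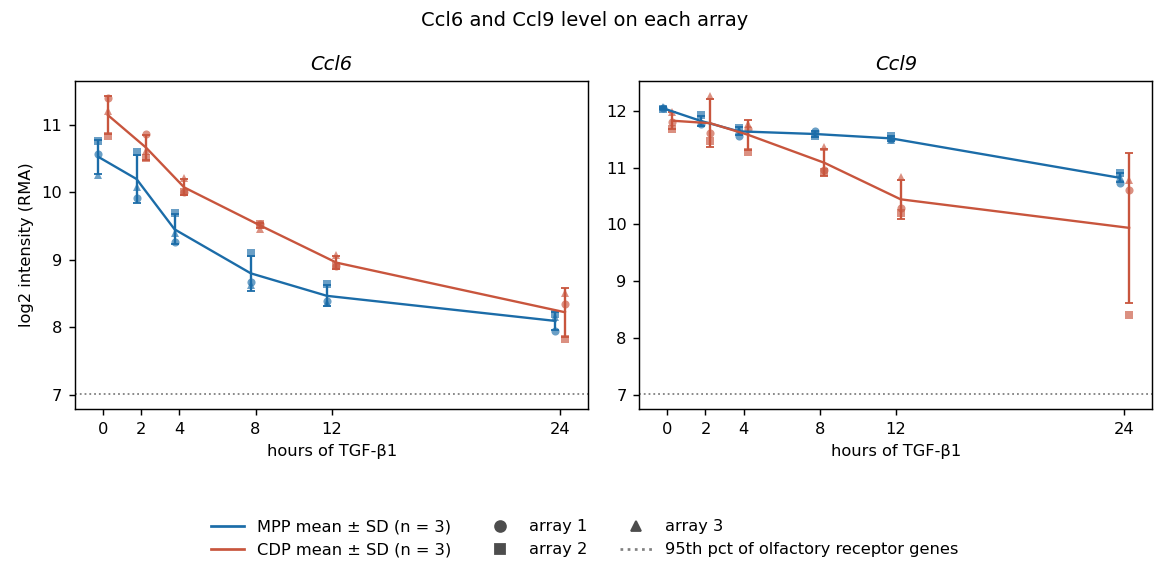
The log2 level of Ccl6 (left) and Ccl9 (right) is plotted against hours of TGF-β1 for each array of MPP (blue) and CDP (red), with the mean ± SD (n = 3) as lines and bars and the olfactory receptor limit dotted. Ccl6 drops at every step in both cell types, whereas Ccl9 in MPP stays above 11.4 through 12 h and is below 11 at 24 h.

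Ccl6 and Ccl9 neighbour each other on chromosome 11 and fell in both cell types, so their promoters are shown, with 150 bases upstream of the start from RefSeq (GRCm38.p6). Among all 15 pairs of the 6 members with a promoter entry (Ccl3, Ccl6, Ccl9, Ccl12, Ccl17 and Ccl22), the best local alignment was that of Ccl6 and Ccl9, with 58 of 74 columns identical (78.4%). It ran from position -59 to 15 of Ccl6 and from -18 to 49 of Ccl9, counted from the annotated start, so the same letters lie at different distances from it. Capitals mark the upstream portion of this stretch in Ccl6 at chr11:83593088-83593237 and Ccl9 at chr11:83578637-83578786, both on the minus strand.
Ccl6: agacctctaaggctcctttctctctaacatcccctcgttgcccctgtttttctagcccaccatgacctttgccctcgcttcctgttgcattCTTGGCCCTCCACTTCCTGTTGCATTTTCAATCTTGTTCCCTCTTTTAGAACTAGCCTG
Ccl9: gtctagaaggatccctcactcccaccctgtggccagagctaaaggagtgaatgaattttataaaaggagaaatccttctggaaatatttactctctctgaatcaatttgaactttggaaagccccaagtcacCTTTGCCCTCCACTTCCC
In the 250 upstream bases searched on both strands, Ccl6 held the ETS core CAGGAAG at 2 positions, and 10.8% of all 32851 promoters held it. Ccl9 held the AP-1 motif TGANTCA, found in 6.75% of promoters, and a κB consensus, found in 7.25%. The motifs were chosen after the sequences had been looked at, and a match is a description of letters, not a bound site.

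Ccl3, an inflammatory chemokine of macrophages, fell early in MPP. Its arrays read 11.67, 11.95 and 12.75 at 0 h, 10.33, 10.80 and 10.28 at 2 h, and 10.69, 11.05 and 10.73 at 4 h. They read 11.80, 11.21 and 10.78 at 8 h, 11.42, 12.69 and 11.02 at 12 h, and 10.30, 10.64 and 10.56 at 24 h. The arrays at 2, 4 and 24 h lay below all 0 h arrays, while those at 8 and 12 h overlapped with them. The change was -1.65 ± 0.33 at 2 h (3.14-fold, adjusted p = 0.00566), -1.30 at 4 h (adjusted p = 0.0211), -0.86 at 8 h, -0.41 at 12 h and -1.62 ± 0.33 at 24 h (3.08-fold, adjusted p = 0.00269).

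Both Ccl3 calls in MPP leaned on the 0 h array 3, whose NF-κB mean was 9.98 against 9.10 and 9.27. Without it the change was -1.20 at 2 h (adjusted p = 0.0287) and -1.17 at 24 h (adjusted p = 0.0132), and neither was DE. In all, 13 of 32 settings ended the 2 h call, among them the removal of any 2 h array or of 4 h array 1, and 8 of 32 ended the 24 h call, among them the removal of 24 h array 1 or 2. At 12 h the change was -0.86 without array 2, the array with the high NF-κB mean. At 4 h the change became DE without 8 h array 1 (adjusted p = 0.00953) or without 12 h array 2 (adjusted p = 0.00542). Whether the NF-κB state of single arrays had a part in these values was not tested.

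In CDP, Ccl3 read 12.61, 12.47 and 12.87 at 0 h, 10.95, 11.12 and 13.65 at 2 h, and 12.48, 10.87 and 11.76 at 4 h. It read 10.39, 10.28 and 10.85 at 8 h, 9.61, 9.49 and 10.54 at 12 h, and 12.38, 8.49 and 12.70 at 24 h. At 24 h arrays 1 and 3 were near their 0 h level and array 2 held the lowest Ccl3 value of all 36 arrays. The change was -2.15 ± 0.69 at 8 h (adjusted p = 0.0493), -2.77 ± 0.69 at 12 h (6.83-fold, adjusted p = 0.0110) and -1.46 ± 0.69 at 24 h (adjusted p = 0.151). None was DE, although no array at 8 or 12 h overlapped with 0 h.

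Without CDP 24 h array 2 the Ccl3 changes at 8 h (adjusted p = 0.00386) and 12 h (adjusted p = 0.000471) were DE and the 24 h change was -0.35. The 12 h change was also DE without CDP 2 h array 1 (adjusted p = 0.00738), 2 h array 3 (adjusted p = 0.00563) or 24 h array 1 (adjusted p = 0.00747). At 2 h, where array 3 was the high one, the Ccl3 change was -0.74 with it and -1.33 without it. The Ccl3 promoter had the PU.1 core GAGGAA, present in 23.3% of promoters, read on the opposite strand and set in capitals within chr11:83649379-83649528 (minus strand).
Ccl3: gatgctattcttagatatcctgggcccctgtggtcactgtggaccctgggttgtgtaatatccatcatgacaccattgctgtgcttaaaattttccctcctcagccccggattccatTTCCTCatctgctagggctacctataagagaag

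Ccl4, the neighbour of Ccl3 whose annotated span overlaps with it, was near background in 6 of 12 groups. In untreated MPP it read 6.999, 7.31 and 7.69, and in untreated CDP 7.77, 7.73 and 7.83. After 8 h of TGF-β1 the CDP arrays read 6.92, 6.95 and 6.88, below every 0 h array. The change in CDP was -0.86 ± 0.46 at 8 h (adjusted p = 0.265). Without 2 h array 3, which stood at 9.77 against 7.06 and 6.99, the same change had an adjusted p of 0.00293, still under the minimum change. In MPP the change was -0.49 ± 0.13 at 24 h (adjusted p = 0.0190), under the minimum change.

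Ccl5, a chemokine of T cells and monocytes and an interferon-responsive gene, had no DE change at any time. In CDP it read 10.35, 10.22 and 12.42 at 0 h, 10.40, 10.38 and 13.31 at 2 h, and 12.44, 10.36 and 12.40 at 4 h. It read 10.48, 10.21 and 12.54 at 8 h, 10.11, 10.41 and 12.45 at 12 h, and 11.48, 9.61 and 12.34 at 24 h. In MPP it read 9.13, 9.04 and 10.62 at 0 h and 9.88, 8.88 and 9.62 at 24 h. In CDP array 3 was the highest of its group at 5 of 6 times, and the later groups overlapped with 0 h at every time in both cell types. The CDP change at 24 h was 0.15 ± 0.43 (95% interval -0.78 to 1.08), and in MPP it was -0.14 ± 0.38 (interval -0.95 to 0.67). Up to 12 h the CDP arrays high in Ccl5 were those high in the interferon-stimulated mean, which was 10.37 on CDP 0 h array 3, 10.38 and 9.89 on 4 h arrays 1 and 3, and 9.53 and 9.22 on array 3 at 8 and 12 h, against 8.17 to 8.69 on the other CDP arrays up to 12 h, CDP 2 h array 3 apart. At 24 h the CDP arrays had the same order in Ccl5 as in the interferon-stimulated mean (9.50, 8.79 and 9.94), with array 2 lowest in each. Array 2 had the lowest Ccl5 of the 18 CDP arrays (9.61). Its interferon-stimulated mean of 8.79 nevertheless lay above the 8.17 to 8.69 of the low arrays up to 12 h. The part of the interferon-stimulated state in the Ccl5 values was not tested.

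**Figure D3:**
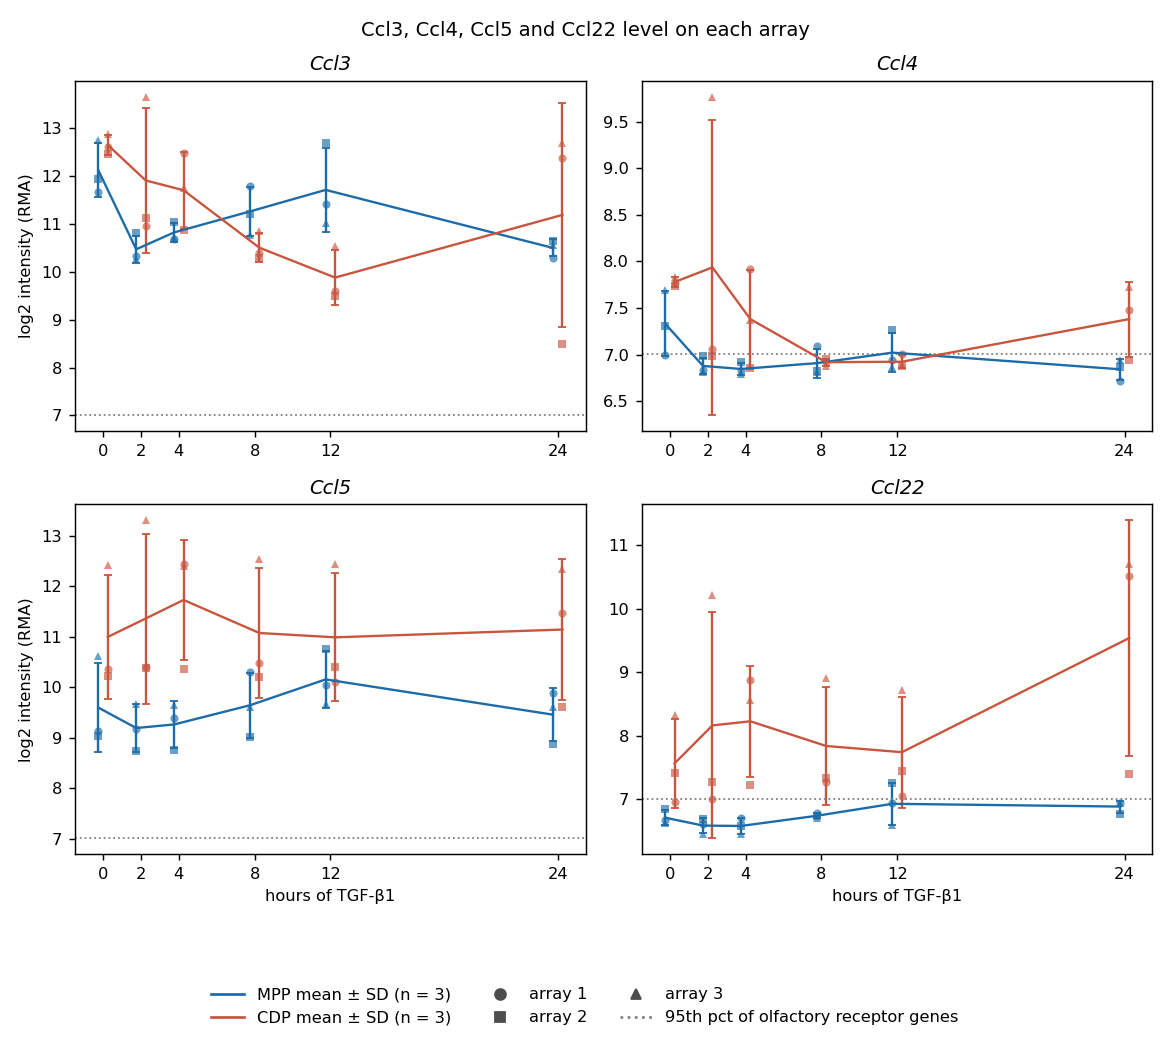
The log2 level of Ccl3, Ccl4, Ccl5 and Ccl22 is plotted against hours of TGF-β1 for every array of MPP (blue) and CDP (red), with the mean ± SD (n = 3) and the olfactory receptor limit dotted. In CDP array 3 is the highest at 2 h for all 4 genes and array 2 the lowest at 24 h.

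Ccl22, a product of mature dendritic cells, was near background in all 6 MPP groups, with array values from 6.45 to 7.25. In CDP it read 6.96, 7.41 and 8.33 at 0 h, 7.002, 7.27 and 10.21 at 2 h, and 8.88, 7.23 and 8.57 at 4 h. It read 7.26, 7.33 and 8.91 at 8 h, 7.06, 7.44 and 8.73 at 12 h, and 10.51, 7.40 and 10.70 at 24 h. Arrays 1 and 3 at 24 h exceeded every 0 h array, while array 2 was unmoved from its 0 h partner (-0.01). The change at 24 h was 1.97 ± 0.61 (3.93-fold, adjusted p = 0.0253), higher in 2 of 3 pairs and not DE.

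In 28 of 32 settings the Ccl22 change in CDP at 24 h stayed not DE, and over all settings it ranged from 1.18 to 2.96. Without CDP 24 h array 2 the Ccl22 change was 2.76 (adjusted p = 0.00200) and met the DE rule. The difference between the CDP and MPP changes was 1.80 ± 0.66 (adjusted p = 0.0696) and 2.58 (adjusted p = 0.00179) without that array. Array 2 was the only array without a rise, so leaving it out had to raise both values. The results without it thus show only how far they depended on this array. The same array had the lowest NF-κB mean of its group (9.76), just below the CDP 0 h arrays (9.78, 9.97 and 10.32). By this mean CDP 24 h arrays 1 and 3 ranked 3 and 2 among all 36 arrays. On CDP 24 h array 2, 7 of the 10 chemokines were lowest, and on CDP 2 h array 3, 9 of the 10 were highest. Such counts were not rare, as 8 of the 10 were lowest on CDP 4 h array 2 and on MPP 12 h array 3. On MPP 2 h array 2, MPP 8 h array 1 and CDP 12 h array 3, 8 were highest. No such count was made over all genes, so these counts do not set the chemokines apart from other genes. They also include members near background, such as Ccl2 and Ccl12. The part of the NF-κB state in the Ccl22 values was not tested. The Ccl22 promoter at chr8:94745534-94745683 (plus strand) is shown with a Smad box CAGAC, found in 42.2% of all promoters, and the ETS core read on the opposite strand (CTTCCTG) side by side in capitals.
Ccl22: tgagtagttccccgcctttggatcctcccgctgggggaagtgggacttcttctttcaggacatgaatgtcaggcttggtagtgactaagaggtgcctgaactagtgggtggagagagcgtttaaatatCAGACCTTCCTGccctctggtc

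Ccl17, the other Ccr4 ligand, stayed between 6.86 and 7.32 on all arrays before 24 h. At 24 h in CDP it read 7.77, 7.09 and 7.61, which sets the same arrays 1 and 3 above the earlier ones as in Ccl22. The change was 0.38 ± 0.12 (adjusted p = 0.0366), and 0.55 (adjusted p = 0.00125) without array 2, under the minimum change in both cases. In MPP the 24 h change was 0.03 ± 0.07 (95% interval -0.13 to 0.18).

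**Figure D4:**
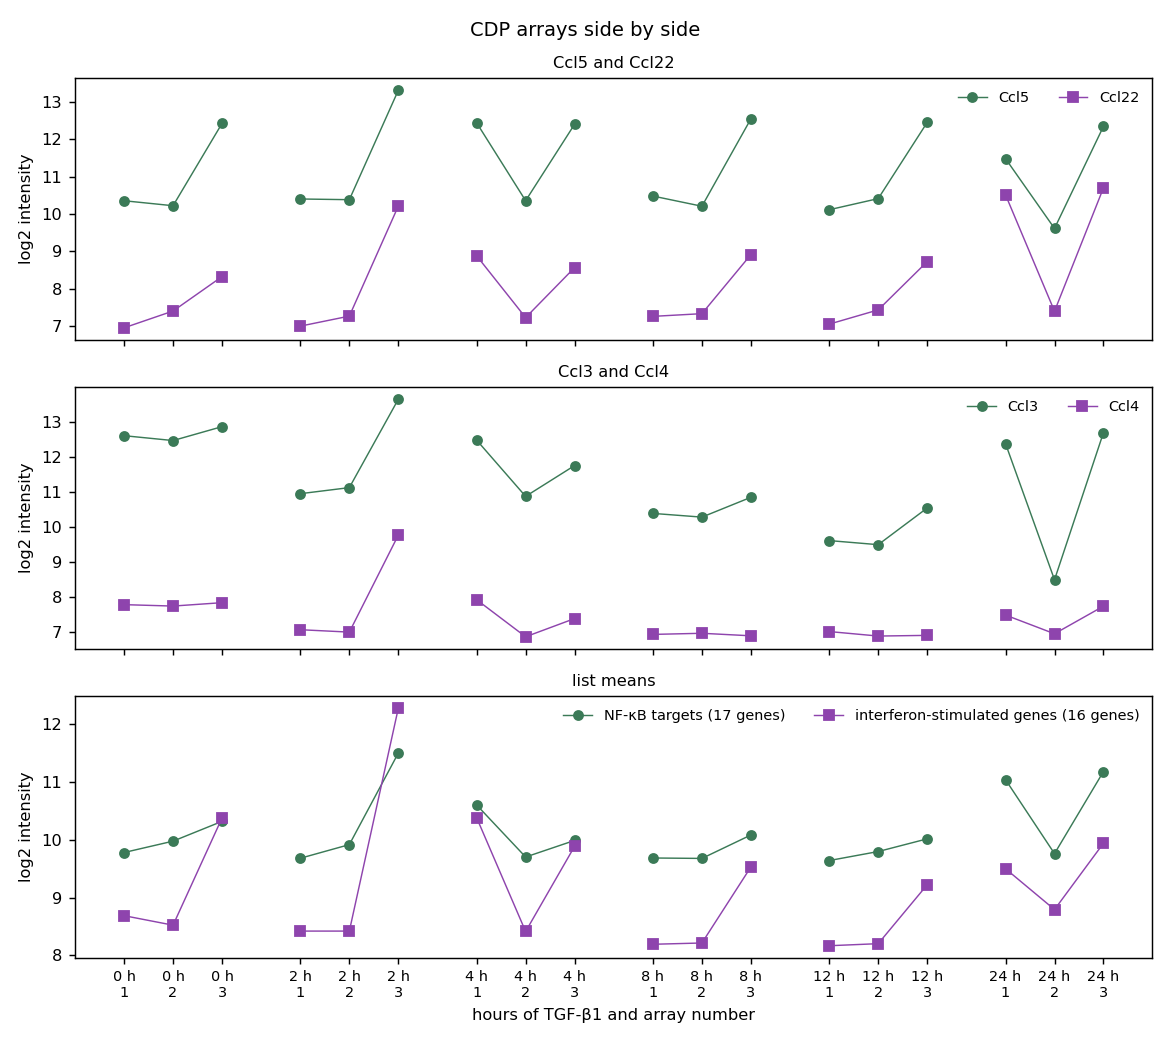
The log2 level of Ccl5, Ccl22, Ccl3 and Ccl4 is set above the mean of the NF-κB targets and of the interferon-stimulated genes for each of the 18 CDP arrays, ordered by hours of TGF-β1 and array number, with lines joining the 3 arrays of a group. CDP 2 h array 3 is high and CDP 24 h array 2 low in relation to their groups in all 3 panels.

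The Ccr2 ligands were at low levels and had no DE change at any time. Ccl2, the main monocyte attractant, and Ccl12, its mouse relative, were near background in all 12 groups. Ccl2 in MPP read 6.48, 6.64 and 6.75 at 0 h and 6.34, 6.23 and 6.19 at 24 h, a fall of 0.37 ± 0.07 without overlap (adjusted p = 0.000978). In CDP it read 7.98 on 2 h array 3 and between 6.22 and 7.08 on the other 17 arrays. Ccl12 spanned 5.93 to 6.25 over all 36 arrays, and the largest gap between its group means was 0.11. Ccl7 was above the background limit in every group, with values from 7.16 to 7.55 on all arrays but CDP 2 h array 3, where it was 8.05. Its 24 h change was -0.08 ± 0.06 in MPP and -0.13 ± 0.12 in CDP (adjusted p = 0.513 and 0.528).

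**Figure D5:**
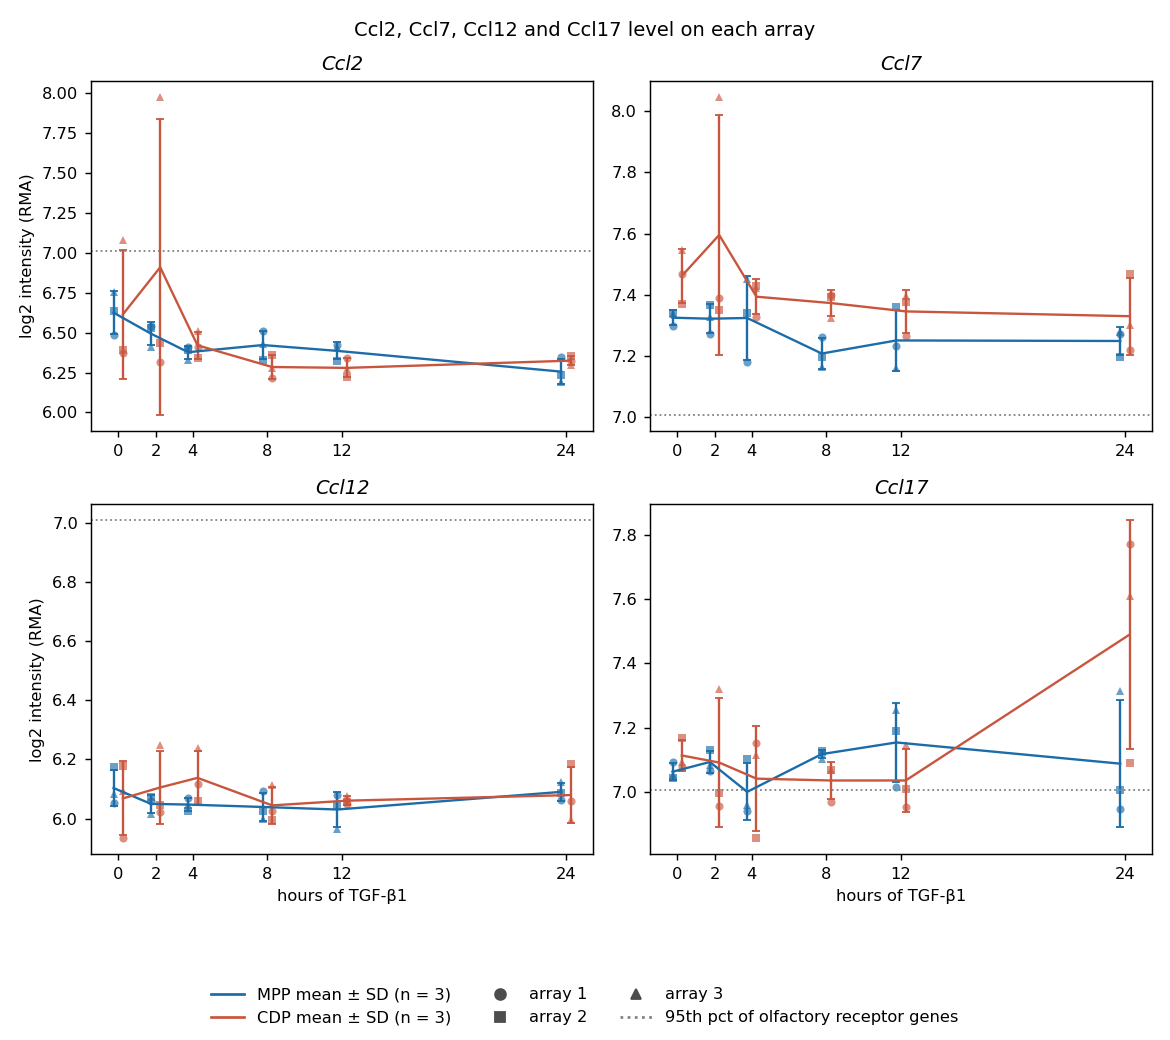
The log2 level of Ccl2, Ccl7, Ccl12 and Ccl17 is plotted against hours of TGF-β1 for every array of MPP (blue) and CDP (red), with the mean ± SD (n = 3) and the olfactory receptor limit dotted. Ccl12 stays below 6.3 on every array, CDP 2 h array 3 is the highest array for Ccl2 and Ccl7, and Ccl17 exceeds 7.5 only on CDP 24 h arrays 1 and 3.

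With the 12 group means of a gene put in order, the arrays of neighbouring groups overlapped at all 11 steps for Ccl2, Ccl3, Ccl5, Ccl7, Ccl12, Ccl17 and Ccl22. They overlapped at 10 of 11 steps for Ccl4, 9 for Ccl6 and 8 for Ccl9. Groups next to each other by rank are the nearest in mean, so overlap is likely for any gene, and all genes were not counted. The order of the means is thus loose, which does not bear on the changes over time. In order of time the Ccl6 arrays did not overlap at 4 of 5 steps in CDP and 3 of 5 in MPP.

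Whether the cell types differed was tested in 2 ways. Before treatment none of the 10 chemokines was DE between CDP and MPP, where 2.81% of all genes were, and only Ccl6 had an unadjusted p under 0.05. Ccl5 had the widest untreated difference (1.40 ± 0.80, adjusted p = 0.249), with overlapping arrays. The difference of responses, the CDP change minus the MPP change, was DE for no member at any time by limma, where 0.0301%, 0.14%, 0.411%, 0.727% and 1.85% of all genes were DE at 2, 4, 8, 12 and 24 h. An unadjusted p under 0.05 was reached by 0, 0, 0, 2 and 3 members at these times. At 12 h these were Ccl3 (change of -2.77 in CDP and -0.41 in MPP, difference -2.36 ± 0.82, adjusted p = 0.113), whose MPP change was -0.86 without 12 h array 2, and Ccl9 (-0.85 ± 0.36, adjusted p = 0.229). At 24 h they were Ccl6, Ccl17 and Ccl22. The Ccl9 difference at 24 h was -0.66 ± 0.36 (95% interval -1.39 to 0.07) and -0.01 without CDP 24 h array 2.

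Of the 13 CC chemokine receptors measured, which include receptors of other ligands, 2 rose in CDP at 24 h and none was DE in MPP. Ccr6, the receptor of Ccl20, rose by 2.34 ± 0.18 (adjusted p = 1.77e-07), and Ccr1, which binds Ccl3, Ccl5, Ccl6 and Ccl9, by 1.05 ± 0.25 (adjusted p = 0.00439). Ccr2 changed by -0.66 in CDP (adjusted p = 0.00199) and by -0.21 in MPP (adjusted p = 0.0175), both under the minimum change, and Ccr4 by -0.02 and -0.10. The median change of the receptor list was 0.11 in CDP and -0.07 in MPP. Untreated CDP held more Ccr7, which guides dendritic cells to lymph nodes, than untreated MPP by 3.22 ± 0.25 and more Ccr6 by 1.37 ± 0.27.

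Of 16 CXC and other chemokines, 1 rose in MPP and 3 rose in CDP at 24 h, and none fell. Cxcl16, a membrane-bound chemokine, rose by 1.68 ± 0.23 in MPP and 2.36 ± 0.33 in CDP. Cx3cl1, which lies between Ccl22 and Ccl17, rose by 2.19 ± 0.46 in CDP, and Xcl1 rose by 1.27 ± 0.22. The NF-κB list of 17 genes had 2 DE genes in each cell type at 24 h: Il6 rose (2.84 ± 0.12) and Ptgs2 fell (-1.58 ± 0.37) in MPP, and Cd40 (2.16 ± 0.49) and Nfkbie (1.50 ± 0.34) rose in CDP. Its median change was -0.32 in MPP and 0.54 in CDP. The list of 16 interferon-stimulated genes held no DE gene in either cell type at 24 h, where 1.2% of all genes were DE in MPP and 3.14% in CDP. Its mean ran from 8.52 to 10.37 on the CDP arrays at 0 h and from 8.79 to 9.94 at 24 h. With that spread a change in CDP could have been missed.

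Marker genes of myeloid cells moved as well. Of 10 monocyte and macrophage markers, 4 fell in MPP and 7 fell in CDP at 24 h, none rose, and the list medians were -0.93 and -1.56. The mean of these markers lay between 10.11 and 10.51 on the MPP 0 h arrays and between 9.24 and 9.58 at 24 h, and in CDP between 9.87 and 10.41 and then 8.26 and 8.66. Examples are Adgre1, a macrophage surface antigen (-1.20 ± 0.08 in MPP and -3.44 ± 0.17 in CDP), and Msr1, a scavenger receptor (-2.15 ± 0.14 and -1.55 ± 0.15). The part of these cells in the fall of Ccl6 and Ccl9 was not tested. Of 10 mature dendritic cell markers, Cd86, Il12b, Cd40 and Cd80 rose in CDP at 24 h and none was DE in MPP. The mean of these markers on the CDP arrays was 8.65, 8.91 and 9.46 at 0 h and 10.07, 9.07 and 10.42 at 24 h, so array 2 lay within the 0 h range and arrays 1 and 3 above it.

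Other cell markers also changed by 24 h. Of 5 Langerhans cell markers, 3 rose in MPP (list median 1.04) and 4 rose in CDP (list median 3.71). Cd207 rose in neither and was below the background limit in every group. Its means at 0 and 24 h were 6.13 and 6.07 in MPP, and 6.12 and 6.10 in CDP. Epcam was below the limit in MPP at both times (6.34 and 6.46). Of 10 neutrophil markers, Mmp8 fell in MPP (-2.13 ± 0.17), and Mmp8 (-5.14 ± 0.18) and Ctsg (-3.59 ± 0.10) fell in CDP. The median change of the neutrophil list was 0.05 in MPP and 0.09 in CDP. Its mean in CDP nevertheless lay between 8.07 and 8.41 on the 0 h arrays and between 7.25 and 7.61 at 24 h. In MPP the mean lay between 10.60 and 11.63 at 0 h and between 10.51 and 11.49 at 24 h. Of 7 B cell markers, Cd22 (-3.54 ± 0.18) and Cd79b (-1.07 ± 0.08) fell in CDP and none was DE in MPP. The B cell list medians were -0.18 in CDP and 0.003 in MPP. Of 9 progenitor markers, 1 rose in each cell type at 24 h. Of 10 CDP markers, 2 rose in MPP and 1 in CDP, and of 8 mast cell and basophil markers 1 rose in CDP. From 0 to 24 h in CDP the mean of Kit went from 8.63 to 11.42, that of Siglech from 8.76 to 11.98 and that of Cpa3 from 6.46 to 7.82. The part of any of these shifts in the chemokine values was not tested.

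The genes whose 12 group means ran most like those of Ccl6 were Ifitm6 (Pearson r = 0.988), the lectin gene Clec4a3 (r = 0.984) and Cd300ld (r = 0.976). Their 24 h changes were -2.66, -2.95 and -2.74 in MPP and -2.97, -3.89 and -4.23 in CDP. The group means most like those of Ccl3 were those of Pde4b (r = 0.972), Nadk (r = 0.917) and Susd6 (r = 0.882), and those most like Ccl22 were Dyrk2 (r = 0.993), Dcstamp (r = 0.983) and Aebp2 (r = 0.974). These r values are over 12 group means that share arrays and were picked as the highest among all genes, so they describe likeness only.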

How the data were processed

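The authors deposited log2 intensities of 35556 probe sets on 36 arrays (Affymetrix Mouse Gene ST). The submitters' processing notes name Affymetrix Power Tools and RMA, with no version. RMA corrects background, equalises the arrays and summarises probes, which makes every change a relative one and compresses those of dim genes. By the platform annotation 21789 probe sets carried 1 symbol, 1621 several and 12146 none. Only the first kind was tested. The probe set with the highest mean stood for each gene, which left 19938 genes. The arrays titled 8 h appear as 6 h in a protocol text of the labels.

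The later times were set against 0 h, separately in MPP and CDP, by limma 3.58.1 (R 4.3.3, lmFit and eBayes) on 18 arrays blocked by replicate number. The lowest correlation of residuals between same-numbered arrays was 0.189 in MPP and 0.212 in CDP, all above 0.1, so the numbers were kept as pairs. Untreated CDP and MPP were compared on 36 arrays without a block, and the difference of responses on 36 arrays blocked by replicate number nested in cell type. Tests are two-sided, and the fits were checked on simulated data. All members were named, with list genes DE at 24 h and, for the 3 members with the widest change, the 3 genes of highest r. Members, gene lists and motifs were chosen with earlier results of these data known. The number of arrays limits the precision. Alternatives covered the block, the arrays fitted, dim genes, scaling, the variance prior, array weights, probe sets, thresholds and each array left out. Promoters came from RefSeq tables (GRCm38.p6), 250 bases before to 50 after the start.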

Additional observations from a re-analysis of the deposited data

How the results depend on the processing

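No DE change of Ccl3, Ccl6 or Ccl9, and no change of Ccl3 or Ccl22 that became DE in a setting, reversed direction in the settings run. The 7 MPP calls became 19 at an adjusted p under 0.05 with no minimum change and 4 to 8 when arrays were left out (4 without replicate 1). The 6 CDP calls became 11 and 4 to 9. For the untreated comparison, 0 became 1 at an adjusted p under 0.05. For the difference of responses, 0 became 2 with array weights, 1 at an adjusted p under 0.05, and 0 to 1 with arrays left out (Ccl22 without CDP 24 h replicate 2). Without the replicate block, the pairing of arrays being ignored, the counts were 6 in MPP and 5 in CDP: the calls of Ccl3 at 2 h in MPP (adjusted p = 0.0223) and Ccl9 at 12 h in CDP (adjusted p = 0.0515) were lost, and the difference of responses stayed at 0. Fitted with 0 h alone, Ccl9 at 24 h in CDP was not DE (adjusted p = 0.0206). Median centring and quantile scaling moved no array median by more than 0.055. Levels near or just above background bound what Ccl2, Ccl4, Ccl12, Ccl17 and the MPP values of Ccl22 could show.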
